A study of Homo sapiens with 13 samples.

Results

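The 10 genes described here belong to the BCL2 family, which controls the mitochondrial route of programmed cell death. They were taken by symbol from the deposited count tables: BCL2, BCL2L1, MCL1, BAX, BAK1, BID, BCL2L11, BBC3, PMAIP1 and HRK. They are 10 of 60500 genes in the first table and 10 of 60554 in the second, and all 10 passed the filter on low counts of the second. The cells were H9 human embryonic stem cells, an established line, that carry a doxycycline-inducible gene for the proneural transcription factor NEUROG2 and become excitatory neurons once it is switched on. Bulk RNA was sequenced from 13 libraries in 9 groups, each library from 1 well, and the 2 sets of libraries come from separate sequencing runs. The doxycycline set has 5 groups of 1 library: day 0, day 5 and day 11 without doxycycline (controls), and day 5 and day 11 with 1 µg/ml doxycycline throughout. The FGF2 set has 4 groups of 2 libraries, all given doxycycline for their first 6 days: a day-6 control, day 6 with FGF2 alongside doxycycline (early FGF2), a day-12 control kept without doxycycline for the last 6 days, and day 12 with FGF2 in place of doxycycline for those days (late FGF2). FGF2, a fibroblast growth factor, is labelled at 20 µg/ml (the unit could not be checked). Its late period starts on day 6 by one label and on day 7 by another, and ends on day 12 in both. All groups carry the inducible gene, and none received doxycycline without it. Titles call the cells of the doxycycline set hES-N1 and the 2 libraries of each FGF2 set group hES-N2G1 and hES-N2G2, but every library has hES-N1 as its source name. Nothing says whether these are separate clones, cultures or days, so p-values measure only the spread between these libraries.

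The family works through binding between its members. BCL2, BCL2L1 (BCL-XL) and MCL1 keep cells alive by holding the other members in check on the mitochondrial surface. BAX and BAK1 are the effectors that open the outer mitochondrial membrane, which frees cytochrome c and starts the caspases. BID, BCL2L11 (BIM), BBC3 (PUMA), PMAIP1 (NOXA) and HRK (harakiri) are BH3-only proteins: they sense damage or the loss of growth factor and act through a short helix, the BH3 motif, that fits a groove of the pro-survival proteins. Neurons that lose trophic support die by this route, and HRK is best known from such neurons.

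The shared feature of the family is printed here as the coding bases of the BH3 core, for the pro-survival members of highest level per length and for BH3-only members on which the results turn. A search of 1 coding transcript per gene for 8 codons (leucine, 3 of any kind, glycine or alanine, aspartate, 1 of any kind, then a large hydrophobic residue) found exactly 1 match in each of the 10 members, and a match in 8.78% of 19537 coding transcripts. Each stretch holds the match and 4 codons on either side, 5′ to 3′ on the coding strand, with the leucine codon and the glycine-or-alanine and aspartate codons in capitals.
BCL2L1: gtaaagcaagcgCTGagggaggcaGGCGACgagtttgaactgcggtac
MCL1: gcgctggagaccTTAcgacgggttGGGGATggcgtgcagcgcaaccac
BCL2L11: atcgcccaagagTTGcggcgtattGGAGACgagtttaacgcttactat
BBC3: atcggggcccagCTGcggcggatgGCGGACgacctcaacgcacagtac
PMAIP1: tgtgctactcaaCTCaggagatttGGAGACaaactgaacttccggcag
HRK: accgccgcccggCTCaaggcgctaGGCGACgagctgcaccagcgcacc
In GRCh38 these lie within coding exons at chr20:31721916-31721963 (minus strand), chr1:150578859-150578906 (minus), chr2:111150091-111150138 (plus), chr19:47226573-47226620 (minus), chr18:59902661-59902708 (plus) and chr12:116881164-116881211 (minus), in the order listed. PMAIP1 has the shortest coding transcript of the 10, with 54 codons, and MCL1 the longest, with 350.

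Counted reads per library ranged from 28443657 to 47159475 (doxycycline set) and from 22802501 to 30014661 (FGF2 set). In CPM, counts scaled to 1000000 per library with TMM scaling between libraries, NEUROG2 stood at 1.34 in the day-5 control and 1564 in its doxycycline partner, and the FGF2 response gene ETV4 was at 1.15 and 2.31 CPM in the day-12 controls and at 96.7 and 99.6 CPM with late FGF2, as labelled. Early FGF2 left ETV4 at 3.05 and 3.22 CPM, beside 3.13 and 3.22 CPM in its controls. The 10 neuron markers summed to 14933 CPM with doxycycline on day 5 against 87.1 CPM without it, and the 10 markers of dividing cells to 96.9 against 2184 CPM. The 2 libraries of early FGF2 differed from each other by 20.4 times the counting variance over all genes, against 2.98 to 3.37 times within the other groups. In bulk RNA, fewer cells of a type and less RNA per cell cannot be told apart, and this holds for every level below.

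**Figure D1:**
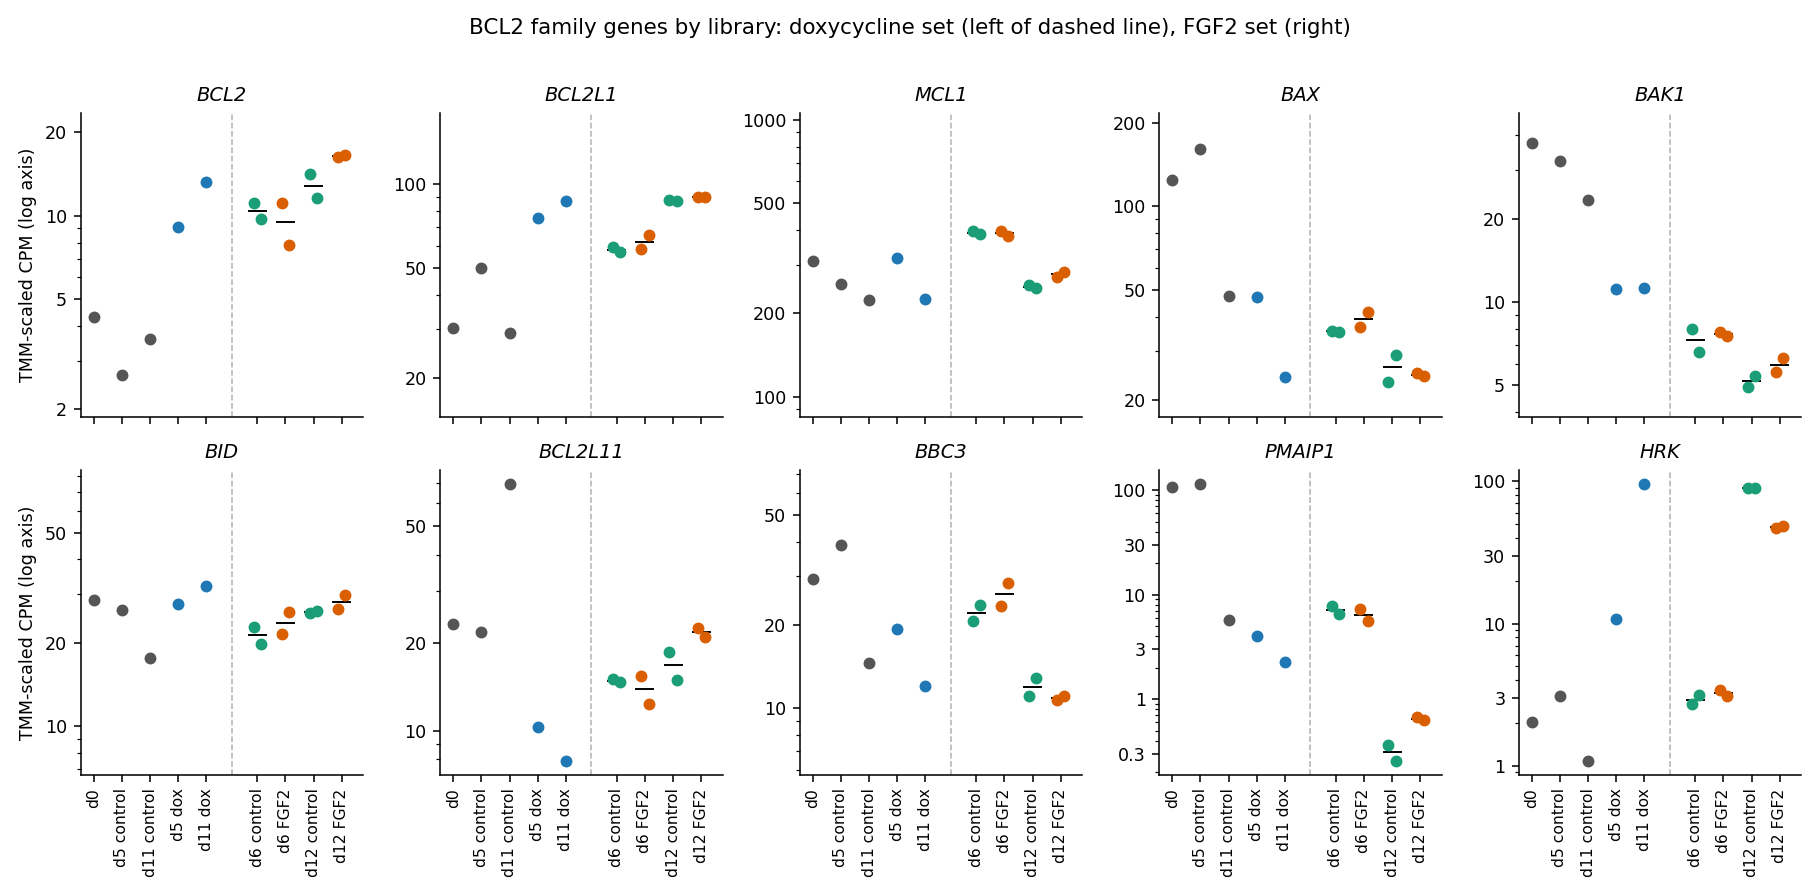
TMM-scaled CPM of the 10 genes on log axes, 1 point per library. Grey points are day 0 and the controls without doxycycline, blue points doxycycline, green points the controls of the FGF2 set and orange points FGF2, with a black bar at the mean of each group of 2, and each set is scaled by itself. HRK stands near 90 CPM in both day-12 controls and near 47.7 CPM with late FGF2, and PMAIP1 stands above 100 CPM only on day 0 and in the day-5 control.

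With neuronal induction several members differed over 2-fold from the controls, in about the share seen over all genes. With doxycycline, HRK and BCL2 were over 2-fold higher on both days and PMAIP1 and BCL2L11 over 2-fold lower on both days, BAX and BAK1 were over 2-fold lower on day 5, and BCL2L1 was over 2-fold higher on day 11. That is 2 members higher and 4 lower of 10 on day 5, when 50.4% of 14955 genes that reached 5 CPM in at least 1 of the pair differed by 2-fold (27.8% higher, 22.5% lower). On day 11 it is 3 higher and 2 lower, beside 46.1% of 14616 genes (23.9% higher, 22.1% lower). The median log2 ratio of the 10 members was -0.44 on day 5 and -0.13 on day 11, and that of all genes measured was 0.17 and 0.12. Each group is 1 library, so these ratios have no replicate check. Ratios are log2 of CPM + 1, intervals are exact binomial 95% intervals of the plain ratio and cover counting error only, and no member past 2-fold turned its sign under another scaling tried.

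Among the pro-survival genes, BCL2L1 was at 30.3 CPM on day 0, at 50.0 and 28.9 CPM in the day-5 and day-11 controls, and at 75.6 and 87.0 CPM with doxycycline on those days. Both induced libraries lie above all 3 without doxycycline, and the day-11 ratio was 3.01 (2.79 to 3.24). A long non-coding gene, ABALON, shares 43.0% of the exon bases of BCL2L1 and stood at 3.21 CPM or less, so a part of the reads of this locus could be counted to either gene or to neither. BCL2 was at 4.30, 2.65 and 3.58 CPM without doxycycline and at 9.14 and 13.2 CPM with it, ratios of 3.45 (2.72 to 4.42) on day 5 and 3.69 (3.01 to 4.56) on day 11. Again no induced library overlaps the others. MCL1, whose protein is known for its short life, was at 310, 256 and 224 CPM without doxycycline and at 317 and 225 CPM with it. Its log2 ratio was 0.31 on day 5 and 0.00 on day 11, and the other scalings turned the latter to values between -0.01 and -0.30.

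The effectors were at their highest in the cells without doxycycline. BAX was at 125 CPM on day 0 and 162 CPM in the day-5 control, and at 46.9 CPM with doxycycline on day 5, 3.45-fold lower (3.27 to 3.64). By day 11 the control itself stood at 47.5 CPM, beside 24.2 CPM with doxycycline, 1.96-fold lower (1.80 to 2.14) and just short of the 2-fold line. BAK1 was at 37.4 CPM on day 0, at 32.4 and 23.4 CPM in the controls and at 11.1 and 11.3 CPM with doxycycline. Its level was therefore about the same in both induced libraries, while the day-11 control was lower than the day-5 control. The log2 ratios of BAK1 were -1.46 and -0.99. On day 11 its plain ratio was 2.08-fold lower (1.83 to 2.36), so it fell short of the line only through the 1 CPM added.

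Of the BH3-only genes, PMAIP1 had the largest ratio on day 5 and HRK on day 11, in opposite directions. PMAIP1, whose product binds MCL1, was at 107 CPM on day 0 and 115 CPM in the day-5 control, but at 4.06 CPM with doxycycline on day 5, 28.3-fold lower (24.2 to 33.2). In the day-11 control it was at 5.72 CPM, 20.1-fold below the day-5 control (17.3 to 23.3), and with doxycycline at 2.27 CPM. The library without doxycycline was thus also low on day 11, when the induced library was 2.52-fold lower (1.92 to 3.34). HRK was at 2.05, 3.12 and 1.08 CPM without doxycycline, at 10.7 CPM with it on day 5 and at 95.8 CPM on day 11. The day-11 ratio was 88.3 (63.7 to 126), from 3161 counts against 36, and HRK was 8.92-fold higher (8.08 to 9.88) in the day-11 than in the day-5 induced library. HRK was the single member past 2-fold between these induced libraries, where 8.54% of 13364 genes were (3.84% higher, 4.7% lower). Here 9 of 10 members reached 5 CPM, and PMAIP1 did not.

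BCL2L11, a BH3-only gene that rises in neurons deprived of growth factor in other systems, was at 23.2 CPM on day 0 and 21.8 CPM in the day-5 control, and at 10.3 CPM with doxycycline. On day 11 the control stood apart at 69.7 CPM against 7.88 CPM with doxycycline, 8.85-fold lower (7.78 to 10.1). A neighbouring non-coding gene, MIR4435-2HG, shares 10.9% of its exon bases. BBC3, a damage-induced BH3-only gene, was at 29.3 CPM on day 0, at 38.8 and 14.6 CPM in the controls and at 19.4 and 12.1 CPM with doxycycline, so that its day-5 ratio of 2.00-fold lower (1.83 to 2.19) fell short of the line only through the 1 CPM added. BID, which death receptors activate through a caspase, had 28.6, 26.2 and 17.6 CPM without and 27.7 and 32.0 CPM with doxycycline, within 2-fold on both days.

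Between day 5 and day 11 without doxycycline, BCL2L11 was over 2-fold higher and BAX, BBC3 and PMAIP1 over 2-fold lower, beside 25% of 14437 genes (10.8% higher, 14.2% lower). Over the same days the summed level of the pluripotency markers went from 7938 to 2048 CPM and that of the dividing-cell markers from 2184 to 2417 CPM, and the part of either in these ratios was not tested. From day 0 to day 5 without doxycycline no member was past 2-fold, where 10.8% of 14095 genes were (6.31% higher, 4.46% lower). Over day 0 to day 11 BCL2L11 was higher and BAX and PMAIP1 lower, where 15.7% of 14157 genes differed (6.48% higher, 9.19% lower). In each of these comparisons without doxycycline only 8 of 10 members reached 5 CPM, so that BCL2 and HRK were not counted.

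**Figure D2:**
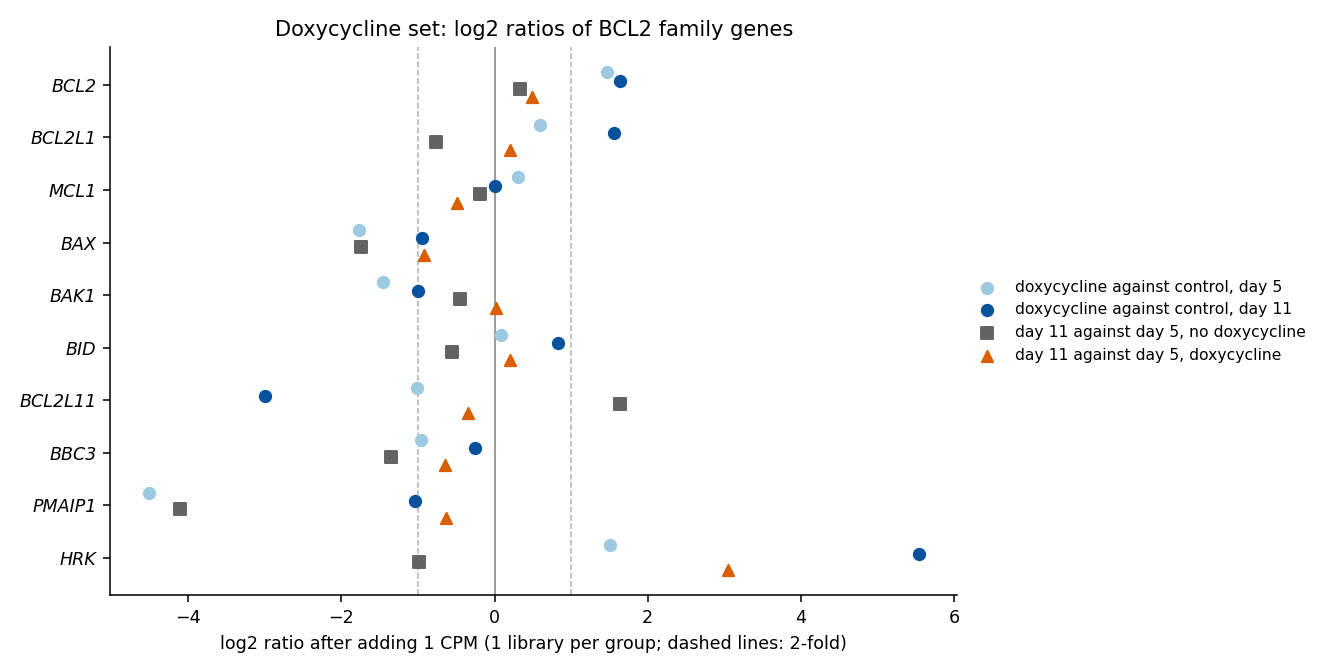
Log2 ratios, after adding 1 CPM, of the 10 genes between single libraries of the doxycycline set, with dashed lines at 2-fold. Circles are doxycycline against control on day 5 (light) and day 11 (dark), squares day 11 against day 5 without doxycycline and triangles the same with it. HRK reaches 5.54 on day 11 and PMAIP1 -4.52 on day 5, and the square of PMAIP1 lies at -4.11.

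In cells that had been induced for 6 days, the 6 days after doxycycline was withdrawn brought a rise of HRK and a loss of PMAIP1, both over 20-fold. BCL2L1 and BID also rose, and MCL1, BAX, BAK1 and BBC3 fell. Thus 3 members rose and 5 fell in the day-12 controls against the day-6 controls (edgeR quasi-likelihood test, Benjamini-Hochberg adjusted p under 0.05 over 20142 genes). Of all genes 64% were called in this comparison, 31.7% higher and 32.3% lower, which is the background for these 8 of 10. The libraries of 9 of 10 members do not overlap between these groups, as for 84% of all genes. By size, 3.05% of all genes changed by more than HRK in either direction, and 3.75% by more than PMAIP1. Time in culture and the end of doxycycline cannot be told apart here.

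HRK measured 2.71 and 3.13 CPM in the day-6 controls and 90.1 and 89.5 CPM in the day-12 controls. The groups are far apart and the libraries within each are close, with means of 2.92 ± 0.301 and 89.8 ± 0.447 CPM (SD, n = 2). The log2 change was 4.94 (SE 0.118, edgeR adjusted p = 3.13e-14), a 30.7-fold rise. PMAIP1 went from 7.74 and 6.57 CPM to 0.365 and 0.256 CPM, or from 180 and 153 counts to 9 and 6. It fell by 4.50 on the log2 scale (SE 0.295, edgeR adjusted p = 2.61e-09). BBC3 went from 20.6 and 23.6 CPM to 11.1 and 12.8 CPM, with no overlap, a log2 change of -0.89 (SE 0.13, edgeR adjusted p = 2.35e-05). BCL2L11 measured 15.0 and 14.7 CPM in the former and 18.6 and 14.9 CPM in the latter. Its groups overlap, and its log2 change of 0.18 was not called (edgeR adjusted p = 0.267). BID measured 22.7 and 19.9 CPM and then 25.5 and 26.1 CPM, a log2 change of 0.28 whose edgeR adjusted p of 0.0486 is at the edge: it became 0.0621 with DESeq2 and 0.316 without the second day-6 control library.

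The pro-survival genes moved in different directions over these days. BCL2L1 went from 59.2 and 57.1 CPM to 87.5 and 86.9 CPM, a rise of 0.58 on the log2 scale (SE 0.0827, edgeR adjusted p = 1.65e-05). MCL1 went from 396 and 387 CPM to 253 and 246 CPM, a log2 change of -0.65 (SE 0.0702, edgeR adjusted p = 8.99e-07). Neither gene's groups overlap. BCL2 was at 11.1 and 9.70 CPM and then at 14.1 and 11.6 CPM, without overlap, and its log2 change of 0.31 was not called (edgeR adjusted p = 0.112), though it was without the first or the second early FGF2 library (0.0386 and 0.0368) and when only these 4 libraries were fitted (0.0392).

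Both effectors were lower on day 12. BAX went from 35.5 and 35.2 CPM to 23.3 and 29.2 CPM, with the day-12 libraries far apart, and its log2 change was -0.43 (SE 0.112, edgeR adjusted p = 0.00344). BAK1 went from 7.99 and 6.61 CPM to 4.95 and 5.42 CPM, a log2 change of -0.49 (SE 0.162, edgeR adjusted p = 0.0147). Without the first day-12 control library neither fall was called, with edgeR adjusted p of 0.0661 for BAX and 0.0804 for BAK1, and BAK1 was also not called without the first day-6 control library (0.144). The markers of dividing cells, summed, went from 565 to 679 CPM on day 6 to 17.4 to 19.9 CPM on day 12, and all 10 of them fell. Their part in the changes of family members was not tested.

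The bases upstream of the start of HRK are shown because this gene had the largest change of the 10 between day 6 and day 12 and with doxycycline on day 11, and was the member called with late FGF2. They are the 250 bases before the RefSeq start site, chr12:116881442-116881691 of GRCh38.p14, minus strand, 5′ to 3′.
HRK promoter: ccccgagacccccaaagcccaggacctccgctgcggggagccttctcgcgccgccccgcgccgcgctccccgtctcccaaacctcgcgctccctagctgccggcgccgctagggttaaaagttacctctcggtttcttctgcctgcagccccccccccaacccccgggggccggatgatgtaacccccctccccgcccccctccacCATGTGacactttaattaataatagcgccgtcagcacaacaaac
The capitals mark the single match to CANNTG, the E-box letters that proneural factors such as NEUROG2 can bind, which 61.8% of 35116 promoter windows hold. Neither the AP-1 letters TGANTCA (in 6.57% of windows) nor the cyclic AMP letters TGACGTCA (in 1.65%) occur in it, on either strand. Only these exact letters were searched, so variant forms of either site would be missed. The matching window of PMAIP1 holds none of the 3. These are letters in a window and show nothing of binding.

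FGF2 given during induction was followed by no called change in the family. With early FGF2 none of the 10 members was called by edgeR, beside 0% of all 20142 genes, none had an unadjusted p under 0.05, and DESeq2 and limma voom called none either. Log2 changes ran from -0.16 (PMAIP1) to 0.22 (BBC3), with SEs of 0.0696 to 0.182 and edgeR adjusted p of 0.927 or more. HRK was at 2.71 and 3.13 CPM in the controls and at 3.40 and 3.11 CPM with early FGF2, and PMAIP1 at 7.74 and 6.57 CPM and at 7.25 and 5.55 CPM. The groups overlap for both genes, as for 9 of 10 members, while 28% of all genes do not overlap. BAX was the exception, with 35.5 and 35.2 CPM against 36.7 and 41.6 CPM. The early FGF2 libraries also differ from each other in members, with BCL2 at 11.1 and 7.85 CPM and BCL2L11 at 15.3 and 12.4 CPM. Without the first of these libraries edgeR called 2523 genes with early FGF2 (1172 higher, 1351 lower), and still no member was among them.

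FGF2 given to the induced cells after doxycycline lowered HRK, and no other member was called. HRK was at 90.1 and 89.5 CPM in the day-12 controls (2222 and 2096 counts) and at 46.8 and 48.6 CPM with late FGF2 (1251 and 1475 counts). All 4 libraries are close to their group mean, 89.8 ± 0.447 against 47.7 ± 1.26 CPM (SD, n = 2), and the groups do not overlap. HRK fell by 0.91 on the log2 scale (SE 0.0866, edgeR adjusted p = 1.45e-05), or 1.88-fold. With late FGF2 it still stood above every day-6 library, of which the highest had 3.40 CPM. Of 10 members 1 was called, beside 2.17% of 20142 genes (1.63% higher, 0.536% lower), and 30 of the 108 called genes that fell did so by more than HRK. The fall was called under every alternative tried, with edgeR, DESeq2 or voom adjusted p of at most 0.00139. The authors' deposited DESeq2 and limma tables give HRK log2 fold changes of -0.83 and -0.92 with late FGF2.

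Several members lay above their controls with late FGF2 without being called. PMAIP1 was at 0.365 and 0.256 CPM in the controls and at 0.674 and 0.626 CPM with late FGF2, which is 9 and 6 counts against 18 and 19. Its log2 change of 1.05 had an SE of 0.428 and an edgeR adjusted p of 0.367, and its levels with FGF2 were below all 4 day-6 libraries (5.55 to 7.74 CPM). BCL2L11 was at 18.6 and 14.9 CPM and then at 22.5 and 20.8 CPM (log2 change 0.37, SE 0.131, edgeR adjusted p = 0.257). BCL2 was at 14.1 and 11.6 CPM and then at 16.3 and 16.6 CPM (log2 change 0.36, SE 0.155, edgeR adjusted p = 0.407). MCL1 was at 253 and 246 CPM and then at 271 and 283 CPM (log2 change 0.15, SE 0.07, edgeR adjusted p = 0.459). In these 4 genes the groups do not overlap and the unadjusted p was under 0.05. BCL2L11 and MCL1 were called when only the 4 day-12 libraries were fitted, with edgeR adjusted p of 0.0339 and 0.0308, and in the authors' deposited limma table, with log2 fold changes of 0.37 and 0.15 and adjusted p of 0.0416 and 0.03. BCL2L11 was also called by edgeR without the first or the second early FGF2 library (adjusted p 0.0387 and 0.0357), and MCL1 without the second (0.0493).

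The remaining members differed little with late FGF2. Log2 changes were 0.05 for BCL2L1, -0.09 for BAX, 0.19 for BAK1, 0.13 for BID and -0.13 for BBC3, with edgeR adjusted p of 0.764 or more. BCL2L1, at 87.5 and 86.9 CPM and then 90.0 and 90.2 CPM, had an SE of 0.0811 on the log2 scale. In all, the libraries of 9 of 10 members do not overlap between the day-12 groups, and those of 46.4% of all genes do not either. The summed level of neuron markers overlapped between these groups (17131 to 17329 against 17097 to 17597 CPM), and so did that of dividing-cell markers (17.4 to 19.9 against 16.3 to 18.9 CPM). SYT1, the 1 called gene of the neuron list, rose by 0.31 on the log2 scale (SE 0.0757, edgeR adjusted p = 0.0492). Mesenchyme markers summed to 48.3 to 49.4 CPM in the controls and 63.9 to 73.2 CPM with FGF2, with 5 to 6 and 4 of 10 markers under 1 CPM. THY1, which neurons also express, was the 1 called gene of that list, at 37.9 and 38.9 against 57.2 and 52.1 CPM. Neural progenitor markers summed to 885 to 943 and 1023 to 1103 CPM, but the 2 called genes of the list fell, SOX2 by 0.56 and SOX1 by 2.64 on the log2 scale. Pluripotency markers summed to 141 to 153 and 166 to 180 CPM, with ZFP42 called higher. Astroglia and oligodendroglia markers summed to 40.5 to 48.5 and 51.2 to 51.9 CPM, with OLIG2 called higher. The part of these markers in the levels of members was not tested.

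**Figure D3:**
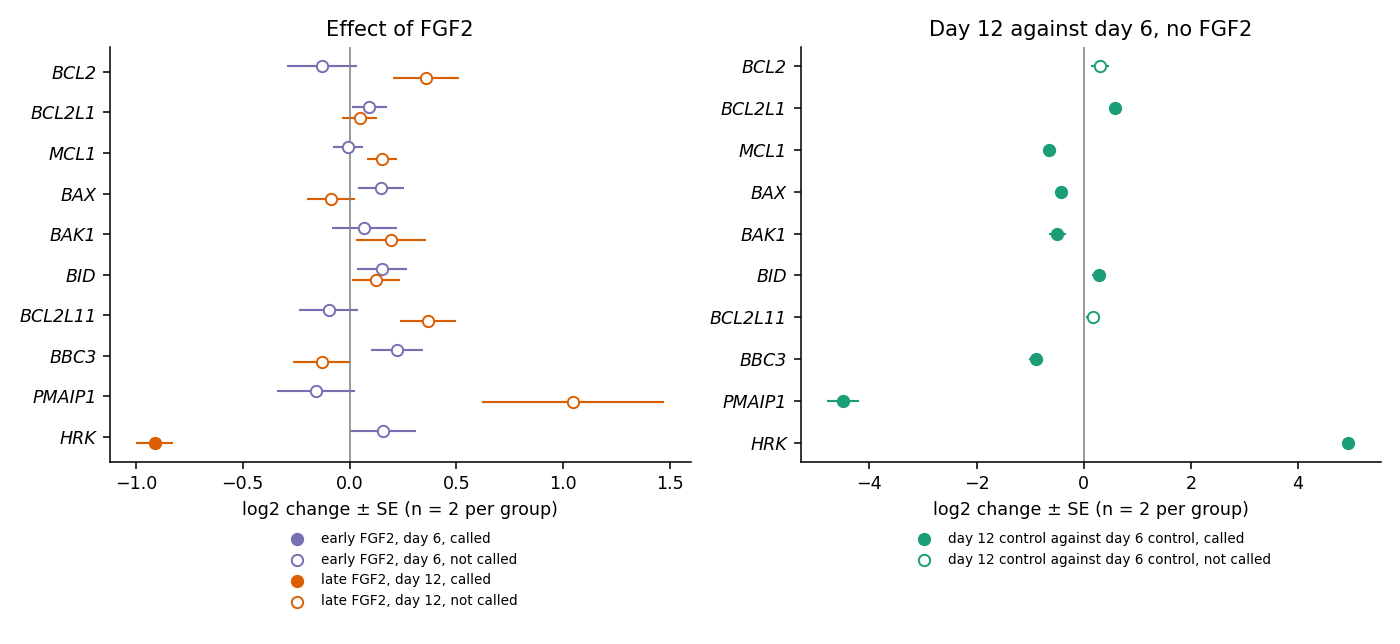
Log2 changes of the 10 genes with SE bars in the FGF2 set, n = 2 libraries a group, filled where the edgeR adjusted p was under 0.05. The left panel shows early and late FGF2 against their controls, the right panel the day-12 against the day-6 control on a wider axis. HRK is the single filled point on the left, at -0.91, and lies at 4.94 on the right.

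The effect of FGF2 on HRK differed between the day-12 and the day-6 cells. Late minus early, its log2 change was -1.07 (SE 0.176, edgeR adjusted p = 0.00641), where early FGF2 gave 0.16 and late FGF2 -0.91. HRK was the 1 member called of 10, beside 0.73% of all genes (0.645% higher, 0.0844% lower), and 8 of the 17 genes called lower in this comparison had a larger difference. The starting levels differed too, since HRK was near 3 CPM in the day-6 controls. Without the first day-6 control library the difference was -0.97 and not called (edgeR adjusted p = 0.0929). The differences of PMAIP1 (1.20), BCL2 (0.49) and BCL2L11 (0.47) had unadjusted p of 0.0207, 0.0483 and 0.0258 and edgeR adjusted p of 0.547, 0.678 and 0.575. Without the first early FGF2 library BCL2 and BCL2L11 were called in this comparison, at 0.76 and 0.63 (edgeR adjusted p = 0.0227 and 0.0324).

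Levels can be set side by side between members only per length. In CPM per kilobase of exon, taken as a share of the sum over the 10 members, MCL1 came first in 8 of 9 groups, with 33.3% on day 0 and 62.8% ± 0.150 (SD, n = 2) in the day-6 controls. The day-5 control was led by BAX, with 27.9% against 26.1% for MCL1. When the longest transcript was taken as the length, BAX also led on day 0, with 32.0% against 27.5% for MCL1. BCL2 itself held no more than 1.12% in any group. The 3 pro-survival genes together held 37.7% on day 0 and 32.9% in the day-5 control, against 70.4% with doxycycline on day 5. In the day-11 control they held 54.3%, and with doxycycline 65.4%. The effectors BAX and BAK1 made up 34.4% in the day-5 control and 17.0% with doxycycline. With the longest transcript as the length, the pro-survival share of these day-5 libraries was 27.0% and 62.3%. The exon bases that BCL2L1 shares with ABALON, 43.0% of its total, were kept in its exon length. Reads there could be counted to neither gene, which would lower the share of BCL2L1 and the pro-survival share, here and below.

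Within the FGF2 set the BH3-only share moved with that of HRK, which is 1 of the 5 genes summed in it. HRK held 0.299% ± 0.0364 in the day-6 controls, 10.7% ± 0.0923 in the day-12 controls and 5.59% ± 0.0311 with late FGF2 (SD, n = 2). It went from the last place of 10 on day 6 to the third in the day-12 controls and the fourth with late FGF2. The day-12 places depend on the length taken. With the longest transcript as the length, HRK lay below BAX in both day-12 controls, at 10.1% and 9.82% against 11.1% and 13.6%. With late FGF2 HRK then also lay below BID, at 5.19% and 5.24% against 6.82% and 7.45%. By exon length, the 5 BH3-only genes together held 12.4% ± 0.131 in the day-6 controls, 20.7% ± 0.0813 in the day-12 controls and 16.3% ± 0.139 with late FGF2. The others did not all move as HRK did. In the same order BBC3 held 4.89%, 3.08% and 2.76%, and PMAIP1 2.24%, 0.114% and 0.234%. BID held 3.36%, 4.75% and 5.08%, and BCL2L11 1.56%, 2.06% and 2.62%. The pro-survival share was 75.7% ± 0.0144, 69.1% ± 1.31 and 73.9% ± 0.0184 in the same groups, so its late FGF2 libraries lie above both day-12 controls and below both day-6 controls. Shares sum to a whole, so that a fall of 1 member raises the others, and they were not tested. BCL2L1 held 12.3% ± 0.0891 on day 6 and 21.5% ± 0.197 in the day-12 controls, and MCL1 went from 62.8% to 46.7% ± 0.985.

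**Figure D4:**
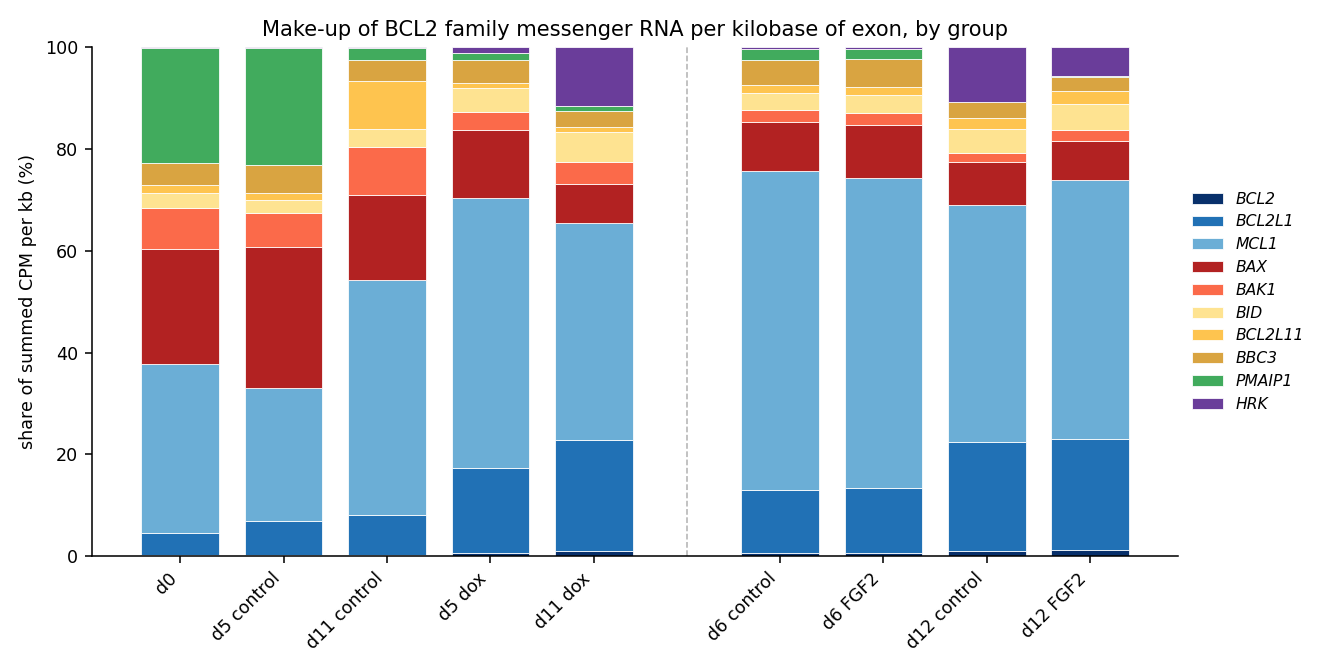
Share of each gene in the summed CPM per kilobase of exon of the 10 members, as the mean of each group (1 library left of the dashed line, 2 libraries right of it). Blue segments are the pro-survival genes, red the effectors and the others BH3-only genes. The blue part rises from 32.9% in the day-5 control to 70.4% with doxycycline, and the purple HRK segment is 10.7% in the day-12 controls and 5.59% with late FGF2.

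Across the 13 libraries, members fell into loose groups by their levels (Pearson r of log2(CPM + 1), each set centred on its mean, as a description). PMAIP1 ran with BAX (0.92), BBC3 (0.91) and BAK1 (0.88), and HRK with BCL2L1 (0.84), BCL2 (0.76) and BID (0.67). HRK ran against BBC3 (-0.78) and MCL1 (-0.75). These values share their libraries and depth and follow the groups above. Of 11730 genes with at least 5 CPM on average in each set, those most like HRK were LRRC7, PHLDB1 and GRIN3A, at 0.996, 0.991 and 0.990. PMAIP1 was most like TBRG4, RGS14 and EOGT (0.986 to 0.982), and BCL2L1 most like ACHE and CADM4 (0.992 and 0.991).

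Of the genes that act around the family, few were called with late FGF2. The background for these counts is the 2.17% of all 20142 genes called. In the list of 13 transcription factors and stress kinases that act on BH3-only genes, 1 fell and none rose: JUN, the AP-1 factor known to switch on HRK in neurons without trophic support. JUN fell by 0.53 on the log2 scale with late FGF2 (SE 0.0789, edgeR adjusted p = 0.00128), and its late minus early difference was -0.70 (adjusted p = 0.00526). Any part of JUN in the levels of HRK, here and in the comparisons below, was not tested. FBXW7, a ubiquitin ligase subunit that marks the MCL1 and JUN proteins for breakdown, was the single called gene of 6 that act on MCL1 stability, with a log2 change of 2.08 (SE 0.0972, edgeR adjusted p = 5.46e-09). No gene was called among 9 further family members tested, 16 caspase and mitochondrial genes, 5 inhibitors of apoptosis and 9 death receptor genes. The median log2 changes of these 4 lists were 0.11, 0.09, -0.05 and 0.22, beside 0 for all genes.

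Between day 6 and day 12 the same regulators split. Of the 13, 6 rose and 5 fell: the JUN kinases MAPK9 and MAPK10 rose by 1.33 and 1.09 on the log2 scale and JUN by 1.02, while E2F1 had a log2 change of -4.76, with edgeR adjusted p of at most 2.29e-08. Downstream of the effectors, 3 of 16 genes rose, among them APAF1, the scaffold of the apoptosome, at 1.08 (SE 0.117, adjusted p = 9.84e-07). Another 5 of them fell, with CASP6 at -1.69 and the mitochondrial flavoprotein AIFM1 at -0.57. Of 5 inhibitors of apoptosis tested, XIAP rose by 0.95 and BIRC6 by 0.54, and BIRC5, also a gene of dividing cells, fell by 8.16. Of 9 further family members BAD rose by 0.60, and 4 fell, among them BOK, BMF and BCL2L13 with log2 changes of -1.04, -1.13 and -0.63. The background for these counts is the 64% of all genes called.

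In the doxycycline set, of 13 regulators measured, 6 were higher and 3 lower past 2-fold on day 5, and 6 higher and 3 lower on day 11, not all of them the same genes. Over all genes 50.4% and 46.1% were past 2-fold on these days. JUN went from 9.95 in the day-5 control to 103 CPM in its induced partner, and from 7.74 to 195 CPM in the day-11 pair. Among caspase and mitochondrial genes 5 of 16 were higher and 2 lower on day 5. The median of the regulators on day 5 was 0.94, beside 0.17 for all genes.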

How the data were processed

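RNA was sequenced from 13 libraries in 2 runs, analysed separately. The authors deposited raw read counts per gene, and the submitters' processing notes name Subread, featureCounts 1.5.0 and GRCh38. Strand and multi-mapping settings are not given in the sources used here. For the doxycycline set they also deposited normalized signal values, and for the FGF2 set tables of log2 fold changes and p-values from DESeq2 and limma, used only where named; 16 per-sample columns in those tables were not used. The symbols of the members came from the deposited tables or the GENCODE annotation of GRCh38, exon lengths and overlaps from that annotation, and promoter windows from RefSeq (GRCh38.p14), where that of MCL1 was not used here.

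One edgeR 4.0.16 model (R 4.3.3) held all 8 FGF2 libraries: 20142 genes passed filterByExpr, TMM set the scaling, and 4 two-sided quasi-likelihood contrasts were adjusted by Benjamini-Hochberg over all genes. Genes were called at an adjusted p under 0.05. No test was made on the unreplicated doxycycline set: TMM-scaled CPM were compared after adding 1 CPM, at 2-fold, among genes reaching 5 CPM in at least 1 of the pair. The script was tested on simulated data. DESeq2 1.42.0 and limma 3.58.1 were alternatives, with other scalings, filters and left-out libraries. Day-12 controls are described with 6 days of growth in 1 field, but their titles and listed periods give 12. The members and gene lists were chosen with earlier results of these data known. The text names all 10 members, of each list up to 4 called or past-fold genes, and up to 3 genes most like a member; some genes and 1 list that the rule gives are not reported here.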

Additional observations from a re-analysis of the deposited data

Results flagged for a closer look

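HRK was singled out because its FGF2 effects on day 12 and day 6 differed by a test of the difference itself, with a log2 value of -1.07 for late minus early (edgeR adjusted p = 0.00641, n = 2 libraries a group). Without the first day-6 control library it was -0.97, with an adjusted p of 0.0929.

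In the doxycycline set, day 11 against day 5 went in opposite directions with and without doxycycline for 4 members whose counting intervals excluded a ratio of 1 in both, each from single libraries, and these differences were not tested. BAK1, at 0.02 with and -0.45 without, had an interval that held 1 with doxycycline (0.880 to 1.16). The log2 ratios of HRK were 3.04 with and -0.98 without doxycycline, and those of BCL2L11 were -0.35 with and 1.63 without. BCL2L1 had 0.20 with and -0.77 without, and BID 0.20 with and -0.55 without. With the authors' normalized values, the ratio of BID with doxycycline was -0.30, so that it no longer went the opposite way.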

How the results depend on the processing

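The number of members called lower with late FGF2 was 1 under every alternative, always HRK, and 0 members were called higher except when only the 2 groups compared were fitted (2: BCL2L11 and MCL1). That fit also called BCL2 higher on day 12 against day 6 (0.32, adjusted p 0.0392). Leaving out 1 library gave 0 to 2 members called higher and 1 lower with late FGF2, 0 to 2 higher and 0 to 1 lower for late minus early, 2 to 4 higher and 3 to 5 lower for day 12 against day 6, and 0 with early FGF2. Without the first early FGF2 library BCL2 and BCL2L11 were called higher in late minus early (0.76 and 0.63). BID in day 12 against day 6 was not called with no filter, DESeq2 or limma voom (adjusted p 0.055, 0.0621 and 0.0511) nor without 6 of the 8 libraries in turn.

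In the FGF2 set, all 13 values that changed sign did so when 1 library was left out, and none was called. Over the libraries left out, log2 changes with early FGF2 ran from -0.033 to 0.028 for MCL1 (0.012 without the first day-6 control), -0.056 to 0.21 for BAK1, -0.40 to 0.10 for BCL2, -0.26 to 0.049 for BCL2L11 and -0.36 to 0.022 for PMAIP1, and with late FGF2 from -0.23 to 0.080 for BAX. In late minus early they ran from -0.017 to 0.25 for BAK1, -0.15 to 0.11 for BID (0.064 and 0.071 among them) and -0.13 to 0.043 for BCL2L1, and for day 12 against day 6 from -0.0052 to 0.32 for BCL2L11. The cause was not tested.

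Nothing says whether the numbers in the titles pair the libraries. Deviations of libraries that share a number correlated at 0.01 to 0.22. With 2 libraries a group, these values do not decide whether the libraries are paired. With the replicate number as a block no member's call changed, with HRK at -0.91 for late FGF2, and 598 genes were called in place of 437. Fitting only the 2 groups compared called 1338 genes, and no filter 656. Leaving out 1 library gave 184 to 1188.

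In the doxycycline set, 4 members were past 2-fold lower on day 11 with library totals (BAK1 and BAX added) and 1 with the authors' normalized values (BCL2L11). At 4-fold, 0 members were higher and 1 lower on day 5, 1 higher and 1 lower on day 11, and without doxycycline 0 higher and 1 lower for day 11 against both day 5 and day 0. The median of all genes on day 5 was 0.17, or 0.00 with library totals and 0.56 with the authors' values, and on day 11 0.12, or -0.21 with library totals. Ratios within 2-fold that turned with another scaling include MCL1 with doxycycline on day 11 and BID for day 11 against day 5 with doxycycline (-0.30 with the authors' values). Higher and lower genes on day 5 numbered 4162 and 3368, or 5603 and 2612 with the authors' values and 3569 and 3742 with library totals. Of 90 shares of members, 78 moved by more than the spread or had none to compare when the longest transcript was taken as the length. Depth limits PMAIP1 on day 12, which rests on 6 to 19 counts a library.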
